A study of Mus musculus with 12 samples.

Results

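The olfactory bulb of male mice was set against 5 other brain regions on 1-colour Agilent arrays: the 2 bulb arrays, 1 from wild-type (WT) mice and 1 from interleukin-18 knockout (KO) mice, were compared with 9 arrays of prefrontal cortex, striatum, hippocampus and hypothalamus (WT and KO each) and of amygdala (KO only). They are 11 of the 12 arrays of the study, which has 1 array for each of 6 regions and 2 genotypes. The array labelled amygdala WT was left out because it lay closer to the hypothalamus WT array (Pearson r = 0.993 across the features tested, which are not independent replicates) than to the amygdala KO array (r = 0.981). The amygdala KO array, which was kept, also lay closer to the hypothalamus arrays (r = 0.983 for WT and 0.985 for KO) than to amygdala WT.

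The KO mice were IL-18-/- and the WT mice C57BL/6, per the labels, and both were 12-week-old F2 littermates from a cross of IL-18-/- males with C57BL/6J females. Each array held equal amounts of RNA from 5 mice, so the spread between animals within a group was averaged out before measurement and no group has a replicate array. After perfusion with cold buffered saline, brains were cut into coronal slices 1 mm thick, and the bulb was taken from 3.5 to 4.5 mm anterior to bregma. The labels disagree on whether the prefrontal slice lay anterior or posterior to bregma, and do not say whether the regions came from the same mice. Each region filled a slide of its own, so slide and region cannot be told apart.

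The olfactory bulb receives the axons of olfactory sensory neurons, which converge in glomeruli and synapse onto mitral and tufted cells, the glutamatergic output neurons of the bulb. Most bulb neurons are GABAergic interneurons: granule cells in the core and periglomerular cells around the glomeruli, some of which also make dopamine. These interneurons are replaced throughout life by neuroblasts that migrate in from the subventricular zone. Olfactory ensheathing glia wrap the incoming axons.

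A level is given as log2 of the background-subtracted spot intensity minus the 75th percentile of that array, so 0 marks the 75th percentile and 1 unit is a 2-fold change. Levels of different genes come from different probes and are not ranked against each other. A gene was tested if the scanner software marked its probe as well above background on both bulb arrays or on at least 5 of the 9 others, which 26070 of 33390 genes and unnamed transcripts met. A gene was called higher or lower where limma's Benjamini-Hochberg adjusted p was under 0.05, the difference was at least 2-fold and both bulb arrays lay beyond all 9 others. The p-values measure the spread between the 2 arrays of a region after the mean genotype difference. With 1 pooled array per region and genotype, the number of arrays limits the precision. Less RNA per cell and fewer cells of a type cannot be told apart in tissue RNA.

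The bulb markers S100a5, Doc2g, Cdhr1 and Tbx21 were all present on both bulb arrays and low on every other array, so the RNA matched its label. Their promoter windows are shown because these are the genes by which bulb tissue was recognised. Each window runs from 250 bases before to 50 bases after the transcription start in the RefSeq annotation of GRCm38.p6 and reads 5′ to 3′ on the gene's strand. They are chr3:90608272-90608571 (plus strand), chr19:4003135-4003434 (plus), chr14:37098298-37098597 (minus) and chr11:97115282-97115581 (minus). Capitals mark matches to any of 3 motifs, searched on both strands: the T-box letters TCACACC, the EBF letters CCCNNGGG and the homeodomain letters TAATTA, none of which contains another.
S100a5: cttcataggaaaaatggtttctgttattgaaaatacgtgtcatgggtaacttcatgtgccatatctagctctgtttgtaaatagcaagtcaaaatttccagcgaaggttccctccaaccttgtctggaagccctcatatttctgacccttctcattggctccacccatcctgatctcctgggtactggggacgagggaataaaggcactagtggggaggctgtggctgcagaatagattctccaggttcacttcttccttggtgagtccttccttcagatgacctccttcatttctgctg
Doc2g: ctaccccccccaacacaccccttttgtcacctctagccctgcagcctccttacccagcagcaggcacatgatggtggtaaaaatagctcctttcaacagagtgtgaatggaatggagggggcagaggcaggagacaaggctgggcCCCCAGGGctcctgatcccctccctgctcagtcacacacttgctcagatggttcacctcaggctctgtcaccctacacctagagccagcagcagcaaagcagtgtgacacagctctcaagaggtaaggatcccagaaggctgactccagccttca
Cdhr1: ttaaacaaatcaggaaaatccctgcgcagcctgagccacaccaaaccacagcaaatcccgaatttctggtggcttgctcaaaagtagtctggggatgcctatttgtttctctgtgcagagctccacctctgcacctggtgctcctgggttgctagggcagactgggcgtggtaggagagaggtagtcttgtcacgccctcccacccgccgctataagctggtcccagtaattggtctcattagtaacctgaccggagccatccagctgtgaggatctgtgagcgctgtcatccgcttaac
Tbx21: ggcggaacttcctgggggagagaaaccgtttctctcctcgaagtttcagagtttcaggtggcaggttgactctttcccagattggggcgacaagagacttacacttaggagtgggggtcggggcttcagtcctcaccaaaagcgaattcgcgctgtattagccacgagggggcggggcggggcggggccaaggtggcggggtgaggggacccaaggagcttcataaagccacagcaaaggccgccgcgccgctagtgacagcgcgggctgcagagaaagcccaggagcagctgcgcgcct

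Among these windows only Doc2g held a match, to the EBF letters. Windows were found for 531 of the 686 named genes called higher in the bulb. Of these, 5.84% held the T-box letters, against 4.34% of 11498 tested named genes and 4.60% of all 27025 genes with a window. The EBF letters stood in 23.9% of them, against 19.8% of tested genes and 15.4% of all, but also in 25.9% of the genes called lower and 14.6% of the 50 largest rises. The homeodomain letters stood in 5.65%, against 4.56% of tested genes and 6.12% of all. These shares describe the windows and were not tested, and a match is not a binding site.

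S100a5 encodes an S100 family calcium-binding protein known from olfactory sensory neurons. Its level was 5.08 on the bulb WT array and 4.83 on the bulb KO array, against a range of -3.64 to -2.70 and a median of -3.34 on the other 9. The gap between the groups was far wider than either group, and the difference was 8.23 ± 0.14 (SE, 2 bulb arrays against 9; limma adjusted p = 7.56e-06), or 300-fold. It was the largest rise among named genes.

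Doc2g, a double C2 domain protein of mitral and tufted cells, had levels of 4.61 (WT) and 4.47 (KO) in the bulb. Elsewhere it lay between -2.46 (hippocampus WT) and -0.61 (striatum WT), with a median of -2.07. The groups did not overlap, and the difference was 6.33 ± 0.32 (SE; limma adjusted p = 6.38e-05).

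Cdhr1, a cadherin-related membrane protein, stood at 4.48 and 4.52 in the bulb and between -2.46 and -0.38 elsewhere (median -1.22), a difference of 5.78 ± 0.28 (SE; limma adjusted p = 5.51e-05). Tbx21, the T-box transcription factor also called T-bet, stood at 3.09 and 3.22 against -3.47 to -1.55 (median -2.66), a difference of 5.86 ± 0.29 (SE; limma adjusted p = 6.09e-05). Over these 4 genes, the closest other array lay 4.64 log2 units below the lower bulb array (prefrontal cortex WT for Tbx21). All 4 remained called when the slide was a random block, with adjusted p from 0.000145 (S100a5) to 0.0300 (Doc2g).

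**Figure D1:**
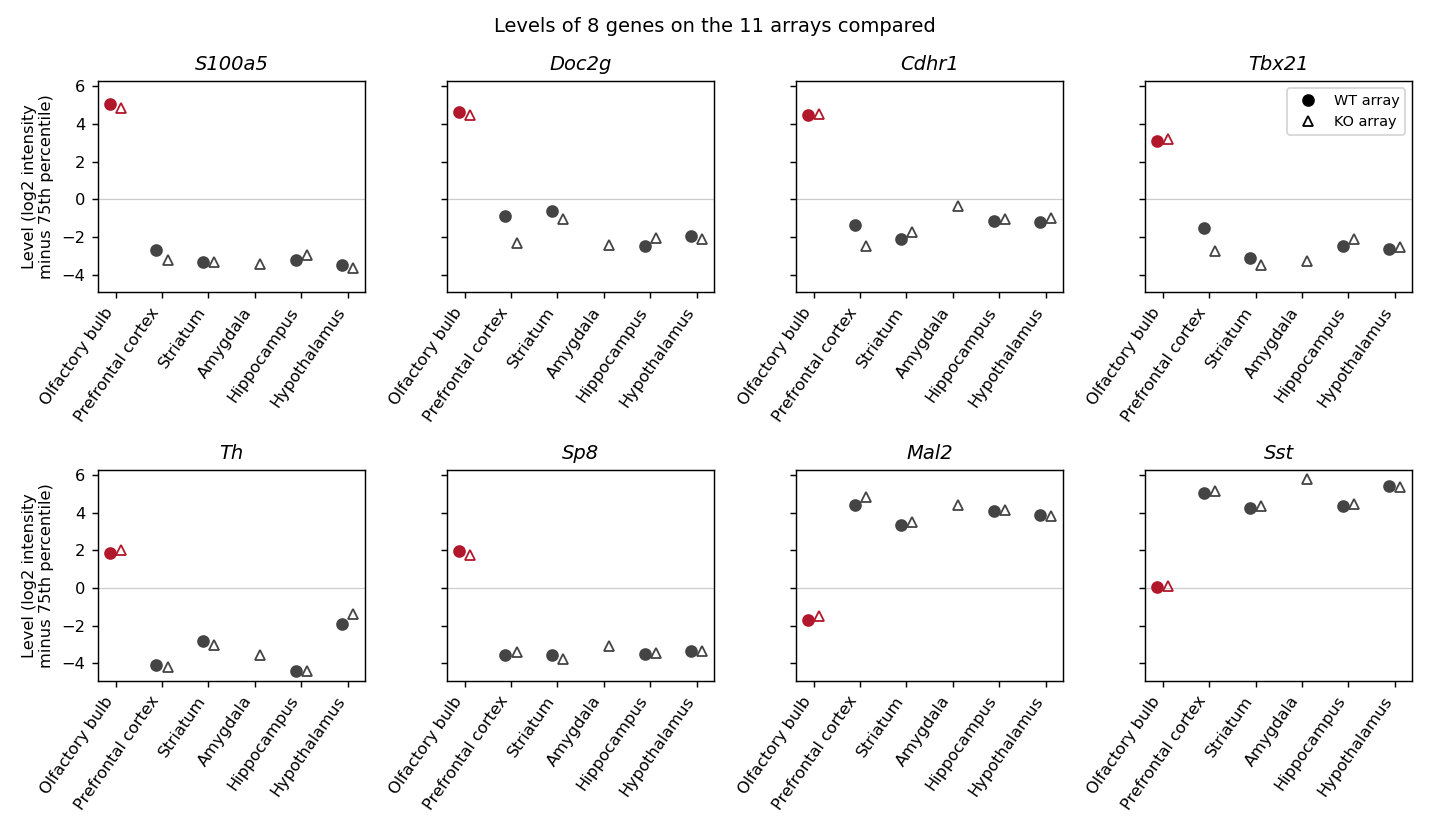
Level of 8 genes (log2 intensity minus the array's 75th percentile) on each of the 11 arrays, by region; filled circles are WT arrays, open triangles KO arrays, and bulb arrays are red. The bulb arrays lie above all others for S100a5, Doc2g, Cdhr1, Tbx21, Th and Sp8 and below all others for Mal2 and Sst, and the WT and KO arrays of the bulb lie close together.

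The bulb differed widely from the other regions: 1639 features (6.29% of those tested) were called higher and 1044 (4.0%) lower. Named genes made up 686 of the higher and 724 of the lower calls. The difference was 4-fold or more for 484 higher and 252 lower features, and 16-fold or more for 58 and 26. For 429 higher and 254 lower features, every bulb array lay at least 2-fold beyond every other array. The higher features included 446 of the 1625 that passed the filter through the bulb arrays alone, a route that favours a higher bulb level. Among the 19384 features well above background on all 11 arrays, 799 (4.12%) were called higher and 927 (4.78%) lower. The share of calls that were higher was 61.1%, but it was 46.6% with each array centred on its median, 47.3% with another background correction (normexp), 46.3% among features bright on all 11 arrays and 59.7% with quantile normalization, so the balance of rises and falls depends on the processing.

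The number of calls depends on which spread is taken as error. When differences among the other regions entered the error, 847 higher and 540 lower calls were left. With the slide as a random block, where the 2 arrays of a slide were estimated to correlate at 0.884, 110 higher and 63 lower calls were left. Under that block 37 of 123 called genes followed here kept their call, and their paragraphs name them. Other called genes named here, such as Pax6, Dlx5 and Sall1, are not in that count. Striatum was the region closest to the bulb for 578 of the 1639 higher calls (35.3%), and without both striatum arrays 2783 features were called higher and 1370 lower. The striatum arrays were also the dimmest, with a 75th percentile down to 208 intensity units against up to 768 elsewhere.

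**Figure D2:**
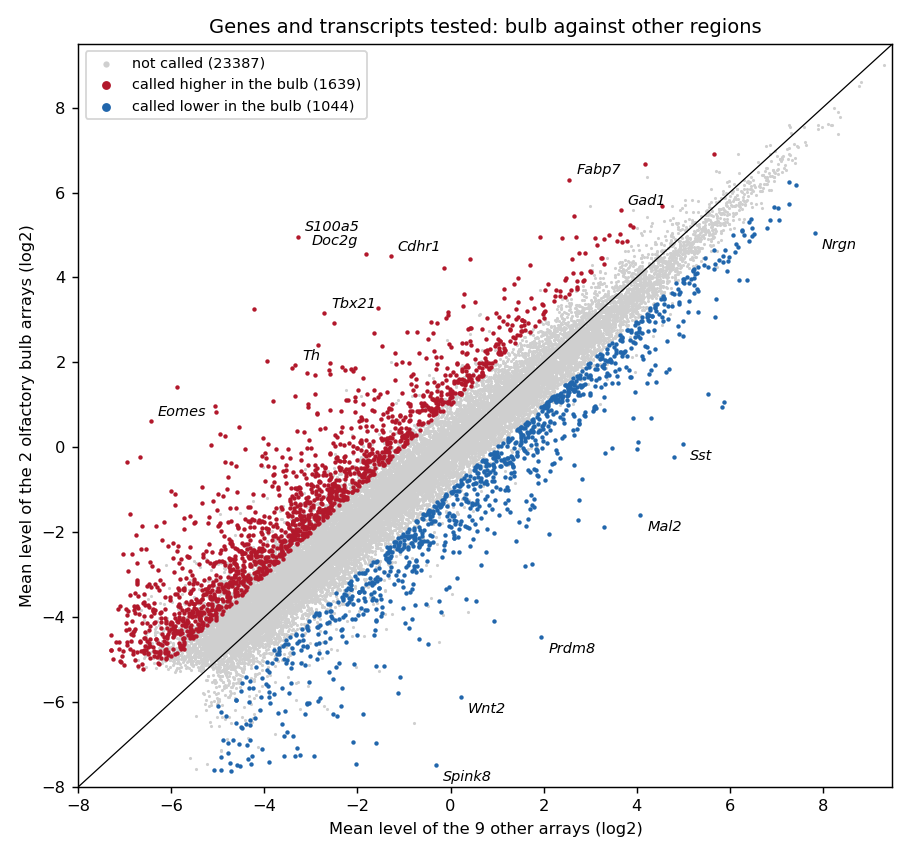
Mean level of the 2 bulb arrays against the mean of the 9 other arrays (both log2) for each feature tested; red points were called higher, blue lower, grey not called, and the line marks equality. S100a5, Doc2g, Cdhr1, Tbx21 and Eomes lie far above the line, and Spink8, Wnt2, Prdm8, Mal2 and Sst far below it.

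The largest rises besides the markers covered transcription factors, secreted enzymes and matrix proteins. Adamts19, a secreted metalloproteinase, had levels of 1.47 and 1.37 in the bulb and -7.37 to -4.51 elsewhere (median -5.28), with only 2 of the 9 other arrays well above background. It passed the filter through the bulb arrays alone, and the fitted difference of 7.32 ± 0.21 (SE) is given as a description, since most of the other arrays were near background. Cpa6, a carboxypeptidase, stood at 1.02 and 0.94 against -6.24 to -3.71, and Clca3a1, a member of the chloride channel accessory family, at 0.27 and 0.26 against -6.20 to -3.49. Both bulb arrays were again nearly equal, and far above the rest.

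Ly6g6e, a small lymphocyte antigen 6 family protein, had levels of 2.77 and 3.08 in the bulb and -3.17 to -2.01 elsewhere, a difference of 5.45 ± 0.08 (SE; limma adjusted p = 7.56e-06). Lgr5, an R-spondin receptor, stood at 2.49 and 2.33 against -4.07 to -2.31. The matrix protein genes Ltbp2 (1.17 and 0.99 against -4.43 to -2.21) and Ccn4 (1.82 and 1.67 against -5.64 to -0.53) were also higher, and for Ccn4 the nearest array was prefrontal cortex WT. Cpa6, Clca3a1, Ly6g6e, Lgr5 and Ltbp2 kept their call with the slide as a random block, and Ccn4 did not (adjusted p = 0.283). Adamts19 also kept its call, which remains a description.

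**Figure D3:**
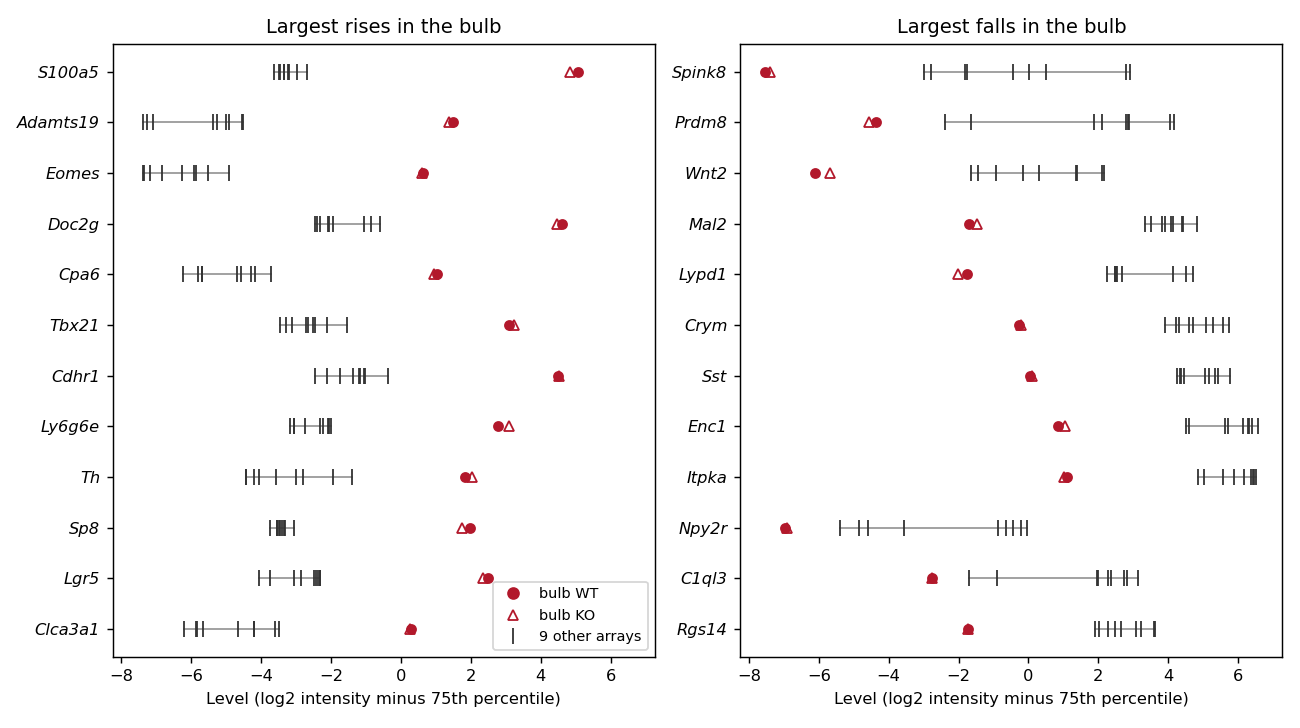
The 12 named genes with the largest rise (left) and the largest fall (right) in the bulb; red circles (WT) and triangles (KO) are the bulb arrays, black ticks the 9 other arrays, joined by a line, on the level scale (log2). No bulb array overlaps the other arrays for any of the 24 genes, and the bulb KO and WT arrays lie between -0.25 and 0.42 apart (KO minus WT).

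Mitral and tufted cell genes were higher in part: 7 of the 19 on the array were called higher and 0 lower, and the median of the fitted difference over the list was 0.39 against 0.075 over all features tested. The 7 include the markers Doc2g, Cdhr1 and Tbx21, by which bulb tissue was recognised, so the count is not separate from them. The shares over all features tested, 6.29% higher and 4.0% lower, belong beside the counts of this and every later list. Eomes, a T-box factor of mitral and tufted cells, passed the filter through the bulb arrays alone, and its call is given as a description. It had levels of 0.63 and 0.59 in the bulb and was not well above background on any of the 9 other arrays. Its rise was at least 49.1-fold. Here and below, such a bound sets the brighter group's mean against the higher, per array, of the probe's own signal and the lowest signal well above background. Igf1, insulin-like growth factor 1, stood at -0.57 and -0.77 against -4.11 to -2.84, a difference of 2.65 ± 0.11 (SE; limma adjusted p = 3.56e-05).

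Reln, the secreted glycoprotein reelin, stood at 3.25 and 3.24 against 0.74 to 2.27 and was called higher (1.83 ± 0.07, SE; limma adjusted p = 2.50e-05), as was Kctd12, an auxiliary GABA-B receptor subunit (1.60 ± 0.14). The vesicular glutamate transporters did not follow: the difference was -0.29 ± 0.14 (SE) for Slc17a7 and -0.20 ± 0.07 for Slc17a6, and neither was called. Tbr1, a T-box factor of the same cells and of cortex, stood at -3.55 and -3.19, inside the range of the other arrays (-4.91 to 0.44). With the slide as a random block 5 of the 7 calls were left: the markers Doc2g, Cdhr1 and Tbx21, Igf1 (limma adjusted p = 0.0351) and Eomes (a description, as above).

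Periglomerular and dopamine neuron genes gave 5 higher calls and 1 lower of 17 on the array, with a median of 1.00. Th, tyrosine hydroxylase, the rate-limiting enzyme of dopamine synthesis, had levels of 1.83 and 2.02 in the bulb and -4.43 (hippocampus) to -1.40 (hypothalamus KO) elsewhere, with a median of -3.57. Both bulb arrays lay above every other, and the difference was 5.28 ± 0.15 (SE; limma adjusted p = 1.48e-05). Slc6a3, the dopamine transporter, stood at 0.94 and 1.08 against -4.59 to -1.12, a difference of 4.04 ± 0.16 (SE). Its next highest arrays were those of the hypothalamus.

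The calcium-binding proteins calretinin and calbindin, which mark separate classes of periglomerular cell, moved apart. Calb2 (calretinin) stood at 2.25 and 2.51 in the bulb against -5.63 to 0.89 elsewhere and was higher by 3.92 ± 0.25 (SE; limma adjusted p = 0.000126). Calb1 (calbindin) stood at -0.13 and 0.04 against 3.16 to 4.36 and was lower by 4.05 log2 units (difference -4.05 ± 0.08, SE; limma adjusted p = 7.62e-06). Genes of the dopamine pathway beyond Th and Slc6a3 were not called: Ddc, which makes dopamine from its precursor, differed by -0.58, and Drd2, a dopamine receptor, by -1.95 with overlapping arrays. Th and Calb1 kept their call with the slide as a random block, and Slc6a3 (adjusted p = 0.114) and Calb2 (0.464) did not.

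Most transcription factors of bulb interneurons were higher: 13 of 21 were called higher and 1 lower, with a median of 1.86. Of the 13, 1 passed the filter through the bulb arrays alone. Sp8, a zinc finger factor of late-born bulb interneurons, had levels of 1.96 and 1.75 in the bulb and lay within a narrow range of -3.75 to -3.07 on the other 9 arrays. The difference was 5.25 ± 0.09 (SE; limma adjusted p = 7.56e-06). Dlx1 (2.71 and 2.72 against -1.68 to -0.17) and Dlx2 (2.81 and 3.03 against -1.47 to 0.50), homeobox factors of forebrain GABA neurons, were higher by 3.68 ± 0.11 and 3.23 ± 0.11 (SE).

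Sall3, a zinc finger factor needed by dopaminergic periglomerular cells, stood at 1.14 and 1.10 against -2.61 to -1.85 and was higher by 3.37 ± 0.07 (SE; limma adjusted p = 1.13e-05). Pbx3, a homeobox cofactor, stood at 3.54 and 3.66 against -1.46 to 1.81, its nearest array being striatum KO. Pax6 (1.94 ± 0.06), Dlx5 (2.76 ± 0.07), Sall1 (1.93 ± 0.08) and Zic1 (2.47 ± 0.14) were also called higher. The exception was Nr2e1, the stem cell factor also called Tlx, at -0.34 and -0.51 against 0.29 to 1.83 (-1.28 ± 0.10, SE; limma adjusted p = 0.000281). With the slide as a random block 7 of the 13 rises were left, including Sp8, Dlx1, Dlx2 and Sall3, and Pbx3 (adjusted p = 0.227), Zic1 (0.195) and Nr2e1 (0.365) were no longer called.

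Granule cell surface and signalling genes were mixed, with 6 higher and 3 lower of 18 and a median of 0.51. Cacng5, an AMPA receptor auxiliary subunit, stood at 3.20 and 3.05 in the bulb and -1.19 to 0.69 elsewhere, a difference of 3.18 ± 0.08 (SE; limma adjusted p = 1.27e-05). Cpne4, a copine also used as a hippocampal marker, was higher by 1.80 ± 0.13 (4.61 and 4.54 against 0.88 to 4.15). The 3 falls were all calcium-calmodulin signalling genes of forebrain projection neurons, namely Nrgn (neurogranin, -2.79 ± 0.07), Camk2a (-2.26 ± 0.40) and Camk4 (-1.62 ± 0.10). The other probe of Camk2a differed by -0.81. For Camk2a the striatum arrays lay far apart, at 6.79 (WT) and 4.71 (KO), and without the bulb WT array it was no longer called. With the slide as a random block, of this list 1 gene (Th) stayed called; the adjusted p was 0.0727 for Cacng5 and 0.0602 for Nrgn.

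Genes of migrating neuroblasts were higher in 10 of 20 members and lower in 0, with a median of 0.87. Dcx, doublecortin, the microtubule protein that marks migrating neuroblasts, stood at 3.08 and 2.99 in the bulb and -0.76 to 0.73 elsewhere (median 0.04), a difference of 3.12 ± 0.15 (SE; limma adjusted p = 5.88e-05). The 3 probes of Dcx differed by 1.03 to 3.13. Prokr2, the prokineticin receptor that guides neuroblasts into the bulb, stood at -1.65 and -1.77 against -6.27 to -2.83 (2.40 ± 0.14, SE). Igfbpl1 (2.36), Sox4 (2.18), Nrep (1.86) and Cd24a (1.65) were higher too.

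Several general neuronal genes in the same list were not called, among them Tubb3 (0.12), Ncam1 (-0.03) and Stmn2 (-1.46). None of the 15 proliferation genes on the array was called in either direction, and 4 of them did not pass the filter. With the slide as a random block 3 neuroblast genes stayed called, Dlx1, Dlx2 and Dcx (adjusted p = 0.0466 for Dcx), and Prokr2 did not (0.446).

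Of 8 GABA synthesis and transport genes 3 were higher and 0 lower, with a median of 0.64. Gad1, which makes GABA from glutamate, had levels of 5.61 and 5.54 in the bulb and 3.03 to 4.72 elsewhere, highest in the striatum, and was higher by 1.91 ± 0.08 (SE; limma adjusted p = 4.20e-05). The GABA transporters Slc6a11 (GAT3, 2.10 and 2.12 against -2.22 to 0.86) and Slc6a13 (GAT2, 1.84 and 1.56 against -0.76 to 1.10) were higher by 2.66 ± 0.22 and 1.54 ± 0.24 (SE). The other probe of Slc6a11 differed by only 0.47. Gad2 (0.40), the other GABA-making enzyme, and the vesicular GABA transporter Slc32a1 (0.74) were not called: amygdala KO lay above the bulb for Gad2 (2.16 against 1.69 and 1.85), and both striatum arrays for Slc32a1 (7.15 and 7.08 against 6.92 and 6.91). None of the 3 calls was left with the slide as a random block (adjusted p = 0.130 for Gad1).

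Glutamate neuron genes went the other way, with 3 lower and 0 higher of 11 and a median of -0.39. Neurod2, a differentiation factor of cortical glutamate neurons, stood at -0.80 and -0.71 in the bulb and -0.26 (striatum WT) to 4.98 (hippocampus WT) elsewhere, a difference of -3.57 ± 0.20 (SE; limma adjusted p = 8.56e-05). Camk2a and Camkv (-1.18 ± 0.08) were the others. None of the 3 stayed called with the slide as a random block (adjusted p = 0.394 for Neurod2).

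Of 20 genes of the olfactory sensory neurons themselves 4 were higher and 1 lower, beside 6.29% and 4.0% of all features, with a median of -0.17. Besides S100a5, Omp, the olfactory marker protein of mature sensory neurons, stood at -1.55 and -1.68 in the bulb and -3.79 to -3.13 elsewhere, a difference of 1.87 ± 0.07 (SE; limma adjusted p = 3.22e-05). Stoml3, a stomatin-like protein of sensory cilia, stood at -1.49 and -1.46 against -6.08 to -4.43 (3.55 ± 0.13, SE), and Rtp2, a chaperone of odorant receptors, at -2.71 and -2.84 against -4.57 to -3.18. Kirrel2, an adhesion molecule of sensory axons, was lower (-1.10 ± 0.10), but its other probe differed by only -0.28.

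Transduction genes such as Gnal (-0.75), Adcy3 (-0.61) and Cnga2 (0.53) were not called. S100a5, Stoml3 and Omp kept their call with the slide as a random block; with normexp background Omp, Rtp2 and Kirrel2 lost it. Rtp2 was not called without the bulb WT array, nor Kirrel2 without the bulb KO array. The summed linear level of the list was 85.1 (WT) and 75.4 (KO) in the bulb, inside the range of the other arrays (54.3 to 89.1).

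Odorant receptor genes were low nearly everywhere. Of 886 symbols beginning with Olfr, 633 passed the filter, and 15 of these (2.37%, beside 6.29% of all features) were called higher and 0 lower. Of the 15, 4 passed the filter through the bulb arrays alone, as 53 of the 633 did, and these 4 calls are descriptions. Olfr1424 had the largest difference, at -2.45 and -2.56 in the bulb against -5.87 to -3.05 (1.99 ± 0.23, SE; limma adjusted p = 0.00109). Olfr701, 1 of those 4, was not well above background on any of the 9 other arrays, and its rise was at least 1.83-fold. The count rests on the setting: it was 32 without the bulb KO array, 10 without the bulb WT array, 45 without both hippocampus arrays, 72 against the regions scanned on the same day as the bulb, 7 with quantile normalization, and 0 with normexp background or with the slide as a random block. Near-identical receptor genes may also share signal on these probes.

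Of 120 vomeronasal receptor genes 4 were called higher and 0 lower, all of the V1r family: Vmn1r208, Vmn1r5, Vmn1r200 and Vmn1r212. Their bulb levels lay between -4.85 and -3.21. They were 4 of 69 tested (5.80%), beside 6.29% of all features. Each passed the filter through the bulb arrays alone, as 14 of the 69 did, and no member was called with normexp background or with the slide as a random block. The count was 2 without the bulb WT array, 8 without the bulb KO array, 11 without both hippocampus arrays and 15 against the regions scanned on the same day as the bulb.

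Ensheathing glia genes were higher in 6 of 15 members and lower in 1, with a median of 0.64. Fabp7, brain lipid-binding protein, had levels of 6.47 and 6.13 in the bulb and 1.53 to 3.47 elsewhere (median 2.38), a difference of 3.73 ± 0.08 (SE; limma adjusted p = 8.74e-06). Frzb, a secreted Wnt antagonist, stood at 2.07 and 1.96 against -4.03 to 0.57 (3.06 ± 0.13), and Foxd3, a neural crest factor, at -0.46 and -0.71 against -3.79 to -2.55 (2.77 ± 0.19). Apod, apolipoprotein D, was higher by 1.80 ± 0.10. The fall was in Sostdc1, which is also a choroid plexus gene: it stood at -4.05 and -4.23 against -3.99 to 1.73, and was no longer called without the bulb KO array. Of these, Fabp7 stayed called with the slide as a random block (adjusted p = 0.0254).

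**Figure D4:**
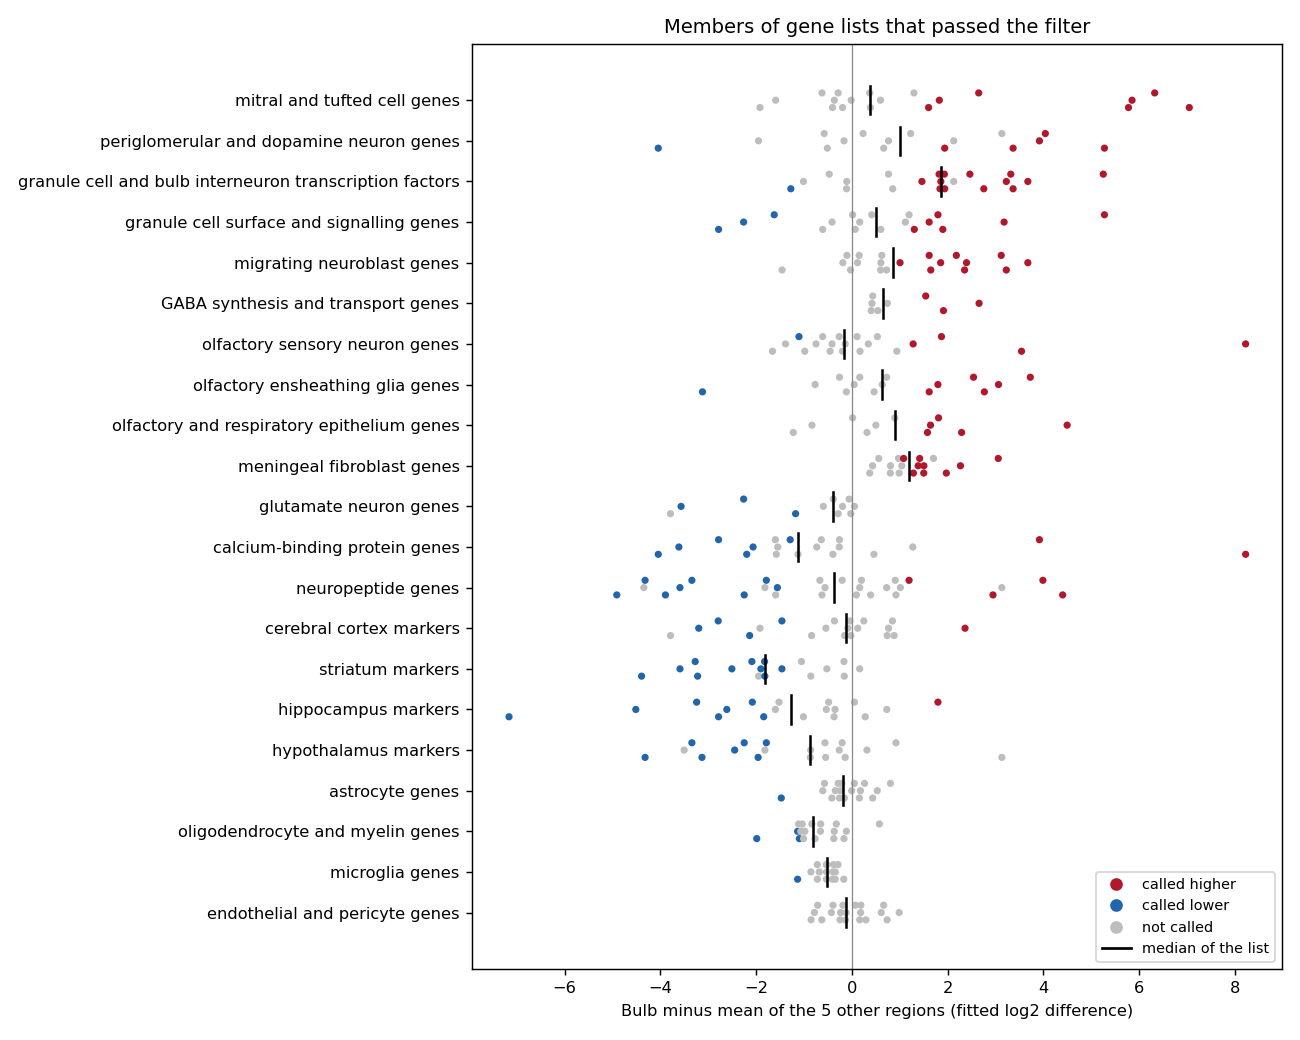
Fitted log2 difference (bulb minus the mean of the 5 other regions) of each member of 21 gene lists that passed the filter, coloured by call; black bars are list medians. Rises gather in interneuron transcription factors, neuroblast genes and meningeal genes, and falls in striatum, hippocampus and hypothalamus markers.

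Genes of tissues next to the bulb were higher as well. Of 18 meningeal fibroblast genes 9 were higher and 0 lower, with a median of 1.18. Islr stood at 3.35 and 3.32 against -1.52 to 1.30 (3.06 ± 0.20, SE, limma adjusted p = 0.000156), and its other probe differed by 0.94. The collagens Col1a1 (1.50) and Col3a1 (1.29) were called too. The summed linear level of this list was 67.1 (WT) and 58.1 (KO) in the bulb and 19.5 to 44.2 elsewhere. The next highest sums were those of hypothalamus WT (44.2) and of the prefrontal arrays (40.8 and 38.3). Without the bulb WT array 6 meningeal genes were called and without the bulb KO array 7, and no call was left with the slide as a random block.

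Of 17 olfactory and respiratory epithelium genes, 11 of which were tested, 5 were higher and 0 lower, and none of the 5 stayed called with the slide as a random block (adjusted p = 0.691 for Cyp2a5 and 0.244 for Cyp2g1). Cyp2a5, a cytochrome P450, stood at 1.79 (WT) and 0.63 (KO) in the bulb, -5.83 to -2.84 on 7 of the other arrays and 0.22 and 0.18 in the striatum; Cyp2g1 stood at -0.46 and -1.48 against -4.10 to -2.58. Both were brighter on the WT bulb array, and over the list the median KO minus WT difference in the bulb was -0.66, against -0.033 over all features. Cyp2a5 was not called without the bulb WT array. The odorant-binding protein genes Obp1a and Obp2a, secreted by nasal glands, did not pass the filter, and the summed level of the list was 34.8 and 33.0 in the bulb against 43.3 to 57.9 elsewhere.

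The haemoglobin genes Hbb-bt (2.88 and 1.97 against 0.15 to 1.79) and Hba-a1 (1.48 and 0.67 against -0.79 to 0.60) were called higher. Neither was called without the bulb WT array, when differences among the other regions entered the error (adjusted p = 0.0676 and 0.0706) or with the slide as a random block (0.746 and 0.796). The part that meninges, epithelium or blood in the dissected slice had in the rises above was not tested.

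Retinoic acid genes gave 3 higher and 2 lower calls of 16, and 2 of the 3 higher ones, Aldh1a3 and Crabp2, passed the filter through the bulb arrays alone. Aldh1a3, a retinoic acid-making enzyme, stood at -1.69 and -2.04 in the bulb, -2.62 and -2.35 in prefrontal cortex and -6.44 to -4.89 on the remaining arrays. Because of that route, its fitted difference of 3.12 ± 0.14 (SE) is given as a description. Rbp4, the plasma retinol carrier, stood at -1.10 and -1.36 against 0.88 to 3.01 (-3.04 ± 0.10), and the retinoid receptor Rxra at 0.60 and 0.62 against 1.77 to 2.62 (-1.53 ± 0.09). The other probe of Rxra differed by only -0.11. Of 27 axon guidance genes 1 was higher, Sema3c (2.24 ± 0.08; -1.77 and -1.76 against -4.87 to -3.32), and 5 were lower, including Tenm1 (-1.90), Epha4 (-1.58) and Slit1 (-1.51). Among 21 growth factor genes Igf1 and Igfbp2 (1.86 ± 0.27) were higher and none lower. Beside the counts of these 3 lists, 6.29% of all features were called higher and 4.0% lower. Of the genes in this paragraph Igf1 alone stayed called with the slide as a random block.

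Neuropeptide genes divided into 4 higher and 8 lower calls of 28, with a median of -0.38. Nppa, atrial natriuretic peptide, had levels of 1.92 and 1.71 in the bulb and -3.04 to -1.46 elsewhere, a difference of 4.41 ± 0.26 (SE; limma adjusted p = 9.86e-05). Nmb, neuromedin B, stood at 4.52 and 4.35 against -0.72 to 1.07 (3.99 ± 0.18), and Prok2, the ligand of Prokr2, at 0.20 and -0.23 against -4.61 to -1.71 (2.95 ± 0.17). Nxph1, a neurexin ligand, was higher by 1.20 ± 0.07. Trh, thyrotropin-releasing hormone, differed by 3.13 but was not called, since a hypothalamus array reached 1.18 against 1.23 and 1.17 in the bulb.

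Sst, somatostatin, was the largest fall of the neuropeptides, at 0.05 and 0.10 in the bulb and 4.24 to 5.77 elsewhere (median 5.06). All 9 other arrays lay above the bulb, and the difference was -4.91 ± 0.06 (SE; limma adjusted p = 7.56e-06). The hypothalamic peptide genes Pmch (-5.72 and -5.09 against -4.57 to 5.93) and Avp (-4.40 and -4.12 against -4.07 to 5.08) and the tachykinin gene Tac1 (-2.36 and -2.05 against -0.84 to 3.40) were lower too. For Pmch and Avp the lowest other arrays were close to the bulb, and the hypothalamus arrays carried most of the difference. Pmch passed the filter through the other arrays alone, so its call is a description. Nppa, Nmb and Sst stayed called with the slide as a random block (adjusted p = 0.0455, 0.0360 and 0.00251), and Prok2, Nxph1, Pmch, Avp and Tac1 did not.

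Calcium-binding protein genes gave 2 higher calls, S100a5 and Calb2, and 6 lower of 19, with a median of -1.12. Hpca, hippocalcin, stood at 0.55 and 0.80 against 3.1 to 5.91 (-3.61 ± 0.10, SE; limma adjusted p = 1.48e-05). Hpcal1 (-2.20 ± 0.06) and Pvalb, parvalbumin (-2.06 ± 0.15), were also lower. With the slide as a random block S100a5 and Calb1 were left, and the adjusted p of Hpca was 0.0890.

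The largest falls were genes high in several other regions at once. Mal2, a membrane trafficking protein, had levels of -1.72 and -1.46 in the bulb and 3.33 to 4.81 elsewhere (median 4.07), a difference of -5.65 ± 0.10 (SE; limma adjusted p = 7.56e-06). Crym, a thyroid hormone-binding crystallin, stood at -0.26 and -0.22 against 3.90 to 5.74, and Lypd1, a modulator of nicotinic receptors, at -1.76 and -2.01 against 2.24 to 4.70. Enc1, an actin-binding protein (0.85 and 1.03 against 4.50 to 6.56), and Itpka, an inositol trisphosphate kinase of dendritic spines (1.09 and 1.02 against 4.85 to 6.50), were lower by 4.88 ± 0.07 and 4.84 ± 0.08 log2 units. Over these 5 genes, the closest other array lay 3.47 log2 units above the higher bulb array (striatum WT for Enc1).

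Rgs14, a regulator of G-protein signalling (-1.72 and -1.73 against 1.91 to 3.61), and Caln1, a neuronal calcium sensor (1.25 and 1.27 against 4.65 to 7.12), were lower in the same way. Prdm8, a transcriptional repressor, stood at -4.36 and -4.57 in the bulb and at 1.87 to 4.17 in all regions but striatum, where it was -2.39 and -1.65. C1ql3, a secreted synaptic protein, had the same arrangement, with -2.77 and -2.75 in the bulb, -1.70 and -0.90 in striatum and 1.96 to 3.14 elsewhere. Mal2, Crym, Lypd1, Enc1, Itpka, Rgs14 and Caln1 kept their call with the slide as a random block, with adjusted p from 0.000652 to 0.0303, and Prdm8 (0.168) and C1ql3 (0.245) did not.

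Markers of striatum were mostly lower in the bulb, and those of hippocampus, hypothalamus and cortex were lower in part. Of 17 striatum markers 10 were lower and 0 higher (median -1.82), among them Drd1, the D1 dopamine receptor (-3.27 ± 0.12, SE), and Gng7, a G-protein subunit (-3.22 ± 0.12). Of 19 hippocampus markers 7 were lower and 1, Cpne4, higher (median -1.27). Of 22 hypothalamus markers 7 were lower and 0 higher (median -0.87), among them Nkx2-1, not well above background on either bulb array and at least 2.14-fold lower. Of these 7 hypothalamus markers 3, Nkx2-1 among them, passed the filter through the other arrays alone. The same held for 1 of the 7 hippocampus markers called lower. Calls by that route are given as descriptions. Of 20 cortex markers 4 were lower, led by Fezf2 (-3.20 ± 0.11), and 1 was higher, Ccn2, a matrix protein also known from deep cortical layers (3.68 and 3.37 against -0.39 to 1.75).

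These falls did not hold against every error. When differences among the other regions entered the error, the lower calls left were 1 of 10 for striatum, 5 of 7 for hippocampus, 1 of 7 for hypothalamus and 1 of 4 for cortex. Under the slide block 1 hippocampus marker stayed lower, no striatum, hypothalamus or cortex marker did, and Cpne4 and Ccn2 were no longer called. Thalamus markers gave 3 higher calls, Calb2, Zic1 and Grid2ip, and 1 lower, Ramp3, of 15. Several of these markers, such as Calb2 and Zic1, are also bulb interneuron genes.

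Markers of glia and vessels differed less, with some counts near the shares of all features (6.29% higher and 4.0% lower). Of 18 oligodendrocyte and myelin genes 3 were lower and 0 higher (median -0.80), with Opalin at -3.18 and -2.86 against -1.88 to 0.31 (-1.99 ± 0.09, SE; limma adjusted p = 4.31e-05). Of 18 astrocyte genes only Slc1a2, the main glial glutamate transporter, was called, at 0.49 and 0.56 against 1.38 to 2.42 (-1.48 ± 0.10, SE; limma adjusted p = 0.000143). Of 16 microglia genes Itgam alone was called (-1.13 ± 0.27), and not without the bulb WT, the bulb KO or the striatum WT array. None of 20 endothelial and pericyte genes was called. No oligodendrocyte, astrocyte or microglia call was left with the slide as a random block.

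Choroid plexus and ependymal genes moved in both directions: 2 of 14 choroid genes were higher and 2 lower, and 1 of 10 ependymal genes was higher and 4 lower. None of these calls was left with the slide as a random block. Aqp1, a water channel of choroid plexus, stood at 1.61 and 1.84 in the bulb and -5.41 to -0.20 elsewhere (4.36 ± 0.83, SE; limma adjusted p = 0.00684), and was not called without either bulb array in turn. Ttr, transthyretin, the defining choroid plexus transcript, was at -6.91 and -6.10 in the bulb and -6.81 to 3.07 elsewhere. Dnah11, a ciliary dynein, stood at 0.30 and 0.14 against -6.22 to -2.71 (4.26 ± 0.20, SE), whereas 4 other ependymal genes of 10 were lower, led by Cfap52 (-2.27 ± 0.14).

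Detection alone, which does not use the fit, gave 335 features (1.00% of 33390) well above background on both bulb arrays and on none of the other 9, of which 95 were named. The reverse held for 14 features (0.0419%), of which 5 were named. The bulb arrays also had the highest shares of spots well above background, 81.3% (WT) and 78.8% (KO) against 60.8% to 77.9%, and 7 of the 335 had a mean bulb level above -2, so most were dim. The part that array brightness had in this count was not tested.

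Eomes was among the named ones. Scgn, secretagogin, a calcium sensor of bulb interneurons, stood at -1.19 and -0.87 (at least 15.5-fold higher), and Ell3, a transcription elongation factor, at -1.22 and -1.52 (at least 12.3-fold). Clec1a, Gdpd4, Lpar3, Art4 and Vipr2, the latter a receptor for vasoactive intestinal peptide, had bounds from 3.46-fold to 5.10-fold. For Evx1 and Agr2 the bulb arrays themselves disagreed: Evx1 was at -4.42 (WT) and -0.95 (KO), and Agr2 at -1.56 (WT) and -4.71 (KO), which lay inside the range of the other arrays. In the reverse direction Wnt2, a secreted signalling protein, stood at -6.10 and -5.68 in the bulb and -1.65 to 2.17 elsewhere (at least 48.7-fold lower), and Spink8, a protease inhibitor high in hippocampus, at -7.54 and -7.41 against -3.00 to 2.90 (at least 33.7-fold). Npy2r, a neuropeptide Y receptor detected on 7 of the 9 other arrays, was at least 9.71-fold lower. Each of these genes passed the filter only through the arrays on which it was brighter, so their calls are descriptions under any error. Eomes, Scgn, Ell3, Lpar3, Vipr2 and Wnt2 kept their call with the slide as a random block. Spink8 (adjusted p = 0.0846), Npy2r (0.362), Clec1a, Gdpd4, Art4 and Evx1 did not.

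No difference between genotypes in the bulb pattern was detectable on these arrays. Il18 itself was 0.71 on the bulb WT array and -3.45 on the bulb KO array, and its KO minus WT difference of -4.16 stood beside -4.22 in the 4 other regions with both arrays, so the genotype labels held. In a test of whether the KO minus WT difference in the bulb departed from the mean of those regions, 0 of 26070 features passed (0%; limma, smallest adjusted p = 0.326; 598 at an unadjusted p under 0.05). With normexp background 13 passed, and with no filter 2. The fit has 3 residual degrees of freedom, so a miss does not show that the genotypes act alike. For the markers the difference of differences was -0.14 ± 0.31 (SE) for S100a5 and 0.27 ± 0.69 for Doc2g.

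The bulb arrays agreed closely with each other (r = 0.994), as did the pairs of the other regions (0.985 to 0.994). The bulb correlated with the other regions at 0.919 to 0.948. That lies inside the range for arrays of different regions outside the bulb (0.904 to 0.985). Among the 1639 higher calls 26 (1.59%) had bulb arrays 2-fold or more apart, against 1.10% of all features tested. Casp1, the protease that activates interleukin-18, was the member of 8 interleukin-18 pathway genes that was called: it stood at 0.63 (WT) and 0.78 (KO) in the bulb against -3.03 to -1.09 elsewhere, a difference of 2.66 ± 0.14 (SE; limma adjusted p = 7.84e-05; 0.119 with the slide as a random block).

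Of the genes called higher in the bulb, 799 were bright on all 11 arrays. On the prefrontal cortex arrays their median WT minus KO difference was 0.17, against 0.048 over all 19384 bright features, and WT exceeded KO for 532. The share of those 19384 features with WT above KO was not counted, so these counts are not read as a trait of the bulb genes. Of the 799 genes, WT exceeded KO for 291 in striatum, 488 in hippocampus and 490 in hypothalamus. The medians were -0.10, 0.070 and 0.051, against 0.0096, -0.00012 and -0.0057 over all bright features. Some of the 15 largest rises, such as Eomes, were not well above background in these regions. For these 15 the median was 0.52 in prefrontal cortex, with WT above KO in 11, and 0.21 in striatum, with WT above KO in 10. It was -0.044 in hippocampus (5 with WT above KO) and -0.050 in hypothalamus (6). These values are descriptions and carry no test.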

How the data were processed

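RNA of 6 brain regions was labelled with Cy3 and hybridised to 1-colour Agilent arrays. The deposited files hold the intensity of each spot, with the processed signal already background-subtracted. Per the file headers, the scanner software was Feature Extraction 9.5.3.1. For what the authors did after the scan, nothing is given in the sources used here. From these intensities, log2 of the processed signal minus the array's 75th percentile over non-control spots was computed, outlier spots were left out, and spots of a probe were averaged. Genes with several probes were represented by the brightest. Differences of other probes are bulb mean minus the mean of the other regions, without a fit. Of the genes followed by rule, 32 had more than 1 probe, and the probes disagreed in sign for 0 of them. Sizes did differ: a probe under 2-fold stood beside a larger one for Slc6a11, Islr, Rxra, Kirrel2, Camk2a and Hbb-bt (0.82 to 1.56). limma was fitted with a term for each region and one for genotype, and the bulb was compared with the mean of the 5 other regions at equal weight. All p-values are limma's, with Benjamini-Hochberg adjustment over all features tested, 2-sided. Depth has no meaning for arrays, whose number limits the precision.

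Named genes were the 4 markers, the 15 largest rises and falls, the largest calls in each gene list, calls against a list's majority, and the brightest genes detected in the bulb alone; other list members, olfactory receptors and the genes detected outside the bulb alone were named after their values were seen. A gene that the rule names is not reported here. The members and lists were chosen with earlier results of these data known. Probes were named by matching their accessions to RefSeq transcripts, and 22951 of 41174 had a name. Alternatives covered scaling, background, filters, probe averaging, error models and left-out arrays. The normexp alternative used the median spot signal in place of the mean. The fit was tested on simulated data. The regions scanned on the bulb's scan day were compared separately as an alternative chosen after seeing the data.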

Additional observations from a re-analysis of the deposited data

How the results depend on the processing

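The count of features called higher in the bulb was 847 with the spread among other regions in the error, 110 with the slide as a random block, 689 with normexp background, 799 among features bright on all 11 arrays, 2783 without both striatum arrays and 2493 without the condition on overlap, against 1639. The count called lower was 540 and 63 under the first and second of these, against 1044. Leaving out each array in turn gave 1454 (without bulb WT) to 2029 (without striatum KO) higher and 1020 to 1086 lower. The departure of the genotype difference in the bulb passed for 13 features with normexp background and 2 with no filter, against 0, and for 0 in every fit that left out 1 array of another region. Il18, not called, changed sign to -0.019 with median scaling and, leaving out each array in turn, ranged from -0.021 (without amygdala KO) to 0.21 (without hippocampus KO), against 0.16. The median difference of all features was 0.075, and -0.10 with median scaling. List medians changed sign for growth factor and thalamus genes with median scaling, astrocyte genes with quantile normalization and odorant receptors with normexp. With arrays left out they did so for axon guidance genes (-0.14 to 0.14 without bulb WT, and without both prefrontal or both hypothalamus arrays), cortex markers (without both prefrontal arrays, and across same-day regions), sensory neuron genes (without both hypothalamus arrays) and endothelial genes (without both striatum arrays). Across regions scanned on the same day as the bulb, 2226 features were higher and 1162 lower. The cause of these differences was not tested. No paired analysis was possible because the labels give no replicate numbers and each group has 1 array. The 2 genotypes of each region share a slide, which the random block takes in. Dim probes near background limit the smallest levels.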
